A study of Rattus norvegicus and Ovis aries with 113 samples.

Results

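The genes described here encode structural and scaffold proteins of the sperm tail: AKAP3, AKAP4, CABYR, ROPN1, ROPN1L, SPA17 and FSCB of the fibrous sheath or its partners, and ODF1, ODF2 and ODF3L2 of the outer dense fibres. The 10 genes were chosen by name and looked up by upper-cased symbol among 31304 sheep and 38675 rat genes. In each species 9 were found under the listed symbol, and ODF3L2 under its newer symbol CIMAP1D, so all 10 were measured in both. The set was drawn up with the AKAP4 level in sheep cerebellum already known, so the regional levels of AKAP4 are a description with no test. The others were picked as sperm tail genes, so a higher level in sperm is no independent evidence about them.

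The series sets nervous tissue beside a reproductive sample of the same animals, all untreated. Its title asks for genes that bridge neurological and reproductive functions in mammals. From 5 post-pubertal male sheep, named 687, 688, 690, 694 and 699, the groups were sperm and 10 dissected brain regions of a single hemisphere, 1 library each. From Sprague Dawley rats they were whole brain and sperm of 15 post-pubertal males (animals 3 to 17), where the sperm came from seminal fluid, and whole brain and ovary of 14 females. No cell type was isolated, no strain is named for the sheep, and no age beyond puberty is stated in the labels.

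The fibrous sheath encloses the axoneme along the principal piece of the tail, and the outer dense fibres run beside the axonemal doublets from the midpiece onward. AKAP4 and AKAP3 are the main anchoring proteins of the sheath and hold protein kinase A there through its regulatory subunits. ROPN1, ROPN1L, SPA17 and CABYR carry a domain resembling that of the regulatory subunit and dock on the same anchoring helix, and FSCB binds CABYR. ODF1 is a small cysteine-rich protein of the dense fibres, and ODF2 is also a component of centriolar appendages in dividing and ciliated cells. These proteins are made in spermatids, which then fall transcriptionally silent, so mature sperm carry only leftover RNA.

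Levels are given as CPM, the counts a gene would have in a library of 1000000 counts, with totals scaled by the trimmed mean of M values (TMM), unless plain totals are named. Library totals were 46697655 to 72403425 counts in sheep brain, 13698889 to 65146176 in sheep sperm, and 13714087 to 119206015 in rats. The sheep sperm libraries were the most unlike the rest, with TMM factors of 0.124 to 0.343, so a TMM-scaled level there is several times the plain one. Markers of other cells were abundant in sheep sperm: the summed level of 7 neutrophil genes was 12798 to 141382 CPM and that of 8 stratified epithelium genes 4131 to 77907 CPM, both highest in sheep 688. In brain those sums were at most 30.6 and 4.02 CPM. Among rats, sperm libraries 7, 16 and 17 held few genes with low counts, and brain libraries 1 and 4 gave 29.9% and 28.4% of their counts to the ribosomal precursor Rn45s. Fewer cells of a type and less RNA per cell cannot be told apart in such bulk samples. Spermatid nucleus and acrosome genes were called higher in sperm for 9 of 10 tested in sheep and 8 of 8 in rats, and 8 of 8 granulosa and theca genes in ovary. In fits of brain alone, 3 spermatid genes passed the low-count filter in each species, and 5 granulosa and theca genes in rats. The others passed only through sperm or ovary, which fixes their direction. Over all tested genes 33.1% were called higher in sheep sperm, 27.7% in rat sperm and 27.7% in ovary.

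For 7 members RefSeq holds promoter windows in the rat build GRCr8 (Akap3, Akap4, Cabyr, Odf2, Ropn1, Ropn1l and Fscb). The 250 bases before the start are shown for the 4 that share the letters TGATGTCA, read on either strand. The transcripts of these 4 were highest in rat sperm libraries 14, 7 and 3, as were those of Cabyr, Odf2 and Ropn1l, which lack the letters. Capitals mark these letters or their reverse complement, and each line runs 5′ to 3′ along the gene. The window of Akap3 lies inside the gene's annotated span, before the start that the table uses.
Akap3, chr4:161377800-161378049, plus strand: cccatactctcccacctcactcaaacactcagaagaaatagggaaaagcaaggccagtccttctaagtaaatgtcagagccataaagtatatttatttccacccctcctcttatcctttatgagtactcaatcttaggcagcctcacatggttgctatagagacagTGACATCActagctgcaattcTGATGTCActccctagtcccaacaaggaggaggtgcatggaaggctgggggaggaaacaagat
Akap4, chrX:18117550-18117799, minus strand: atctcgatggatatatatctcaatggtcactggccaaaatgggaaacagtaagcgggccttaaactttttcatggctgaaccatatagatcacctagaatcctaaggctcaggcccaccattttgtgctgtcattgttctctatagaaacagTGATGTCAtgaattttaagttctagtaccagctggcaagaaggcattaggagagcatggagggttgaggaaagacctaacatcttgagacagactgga
Ropn1, chr11:79632345-79632594, minus strand: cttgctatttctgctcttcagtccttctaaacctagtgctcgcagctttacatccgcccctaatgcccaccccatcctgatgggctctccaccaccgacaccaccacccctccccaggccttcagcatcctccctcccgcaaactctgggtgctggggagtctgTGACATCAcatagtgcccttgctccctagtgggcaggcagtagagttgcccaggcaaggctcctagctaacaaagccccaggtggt
Fscb, chr6:88266926-88267175, minus strand: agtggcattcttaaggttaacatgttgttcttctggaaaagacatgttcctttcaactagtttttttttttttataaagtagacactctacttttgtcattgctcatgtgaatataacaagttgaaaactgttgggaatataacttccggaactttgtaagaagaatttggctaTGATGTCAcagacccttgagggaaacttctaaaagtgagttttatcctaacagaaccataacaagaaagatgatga
The letters begin 84 and 63 bases before the start in Akap3, 98 in Akap4, 86 in Ropn1 and 76 in Fscb. They were noticed in these sequences and searched for afterwards. Over both strands, 4.07% of 27457 rat genes with a promoter window hold them in the same 250 bases. The consensus cAMP response element TGACGTCA was in none of the 7 members, and in 1.78% of all genes. No window of Cabyr, Odf2 or Ropn1l held the letters TGATGTCA. A match describes the letters and shows no binding.

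In sheep sperm the tail genes were carried at very unequal levels by the 5 rams. Tested against the mean of the 10 regions, the 8 members that also passed the low-count filter in a fit of brain alone were all called higher in sperm. ODF1 was called higher too, but it passed the filter only through its level in sperm, which fixes its direction. A call needed a log2 fold change of 1 or more in size and a Benjamini-Hochberg adjusted p under 0.05, by the quasi-likelihood test of edgeR. The same rule called 33.1% of all 21859 tested genes higher and 41.1% lower. FSCB did not pass the filter. The count is read against that background: with TMM scaling the median gene changed by -0.42 on the log2 scale.

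ODF1 had the largest fitted fold change of the 9 members tested, which leave out FSCB. In sheep 687, 688, 690, 694 and 699 its sperm level was 86.4, 5.47, 23.3, 25.4 and 175 CPM. Over the 50 brain libraries it ranged from 0 to 0.158 CPM, with 81 counts in all, so the groups did not overlap. The log2 fold change was 11.81 ± 0.36 (SE), given with no p-value since the filter fixed its direction. ODF3L2, in the same order of animals, was at 160, 2.95, 72.6, 18.9 and 139 CPM in sperm. Its brain libraries lay between 0.0300 and 1.83 CPM, below every sperm library, and its log2 fold change was 7.32 ± 0.24 (SE, edgeR adjusted p 7.97e-32). ODF2 was present throughout the brain at 10.0 to 35.01 CPM. Its sperm levels were 246, 7.85, 38.8, 19.1 and 372 CPM, so sheep 688 lay below all brain libraries and 694 within them. ODF2 was higher in sperm by 3.15 ± 0.23 (SE, log2, edgeR adjusted p 8.28e-18), but by 0.34, short of the threshold, on plain totals.

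The anchoring proteins differed from each other. AKAP3 was almost silent in brain, at 0.0249 to 0.394 CPM, and was at 6.46, 0.144, 2.69, 0.888 and 8.24 CPM in sperm. Only 150 sperm counts stand behind these levels, 2 of them from sheep 688, whose level fell within the brain range. Its log2 fold change was 4.92 ± 0.32 (SE, edgeR adjusted p 7.15e-20). AKAP4 was at 11.3, 0.432, 5.98, 6.91 and 28.6 CPM in sperm and at 1.14 to 24.1 CPM in brain. Sperm of 4 rams lay above the mean of their own brain regions and that of sheep 688 below it. The fitted log2 fold change of AKAP4 was 1.35 ± 0.25 (SE, edgeR adjusted p 3.32e-06). That call was lost without sheep 699 (0.54) and with totals that leave out entries over 5% of a library (0.85). On plain totals AKAP4 was called lower in sperm, at -1.26.

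The docking proteins followed. SPA17 was at 191, 13.5, 34.4, 25.1 and 239 CPM in sperm against 1.37 to 12.2 CPM in brain, without overlap, and rose by 4.68 ± 0.24 (SE, log2, edgeR adjusted p 7.96e-24). ROPN1 was at 51.8, 2.45, 3.88, 2.96 and 168 CPM in sperm against 0 to 3.56 CPM in brain. Sheep 688 and 694 lay within the brain range, and the log2 fold change was 6.22 ± 0.42 (SE, edgeR adjusted p 5.53e-19). CABYR was at 50.8, 8.35, 12.8, 15.3 and 58.0 CPM in sperm and at 2.59 to 22.8 CPM in brain, and its log2 fold change was 2.43 ± 0.24 (SE, edgeR adjusted p 2.82e-13). ROPN1L was at 11.1, 1.08, 0.896, 4.64 and 25.7 CPM in sperm and at 0.406 to 5.99 CPM in brain, and its log2 fold change was 2.41 ± 0.33 (SE, edgeR adjusted p 4.26e-09). In sheep 688 and 690 ROPN1L was below the mean of their own brain regions. On plain totals CABYR and ROPN1L changed sign, to -0.27 and -0.26, and were not called. FSCB was found in all 5 sperm libraries, at 5.46, 0.432, 0.896, 0.4934 and 5.18 CPM. In brain it had 2 counts, both in 1 basal ganglia library, so on summed plain totals the ratio was 744, with a 95% exact binomial counting interval of 201 to 6220. Without that library FSCB was at least 486-fold higher. Such intervals cover counting error only.

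Sheep 687 and 699 gave the 2 highest sperm libraries for all 10 members, and 688 the lowest for every member but ROPN1L. The summed level of 12 spermatid nucleus and acrosome genes followed a like order, at 6535, 190, 2677, 862 and 6495 CPM. The part of the other cells in these levels was not tested. With 688 left out, 9 members were again called. With 699 left out, AKAP4 alone lost its call, and the log2 fold change was 4.59 for ROPN1, 1.42 for ROPN1L and 2.35 for ODF2. On plain totals the sperm of ODF1 and FSCB still lay above every brain library, and that of ODF3L2 and SPA17 did not.

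**Figure D1:**
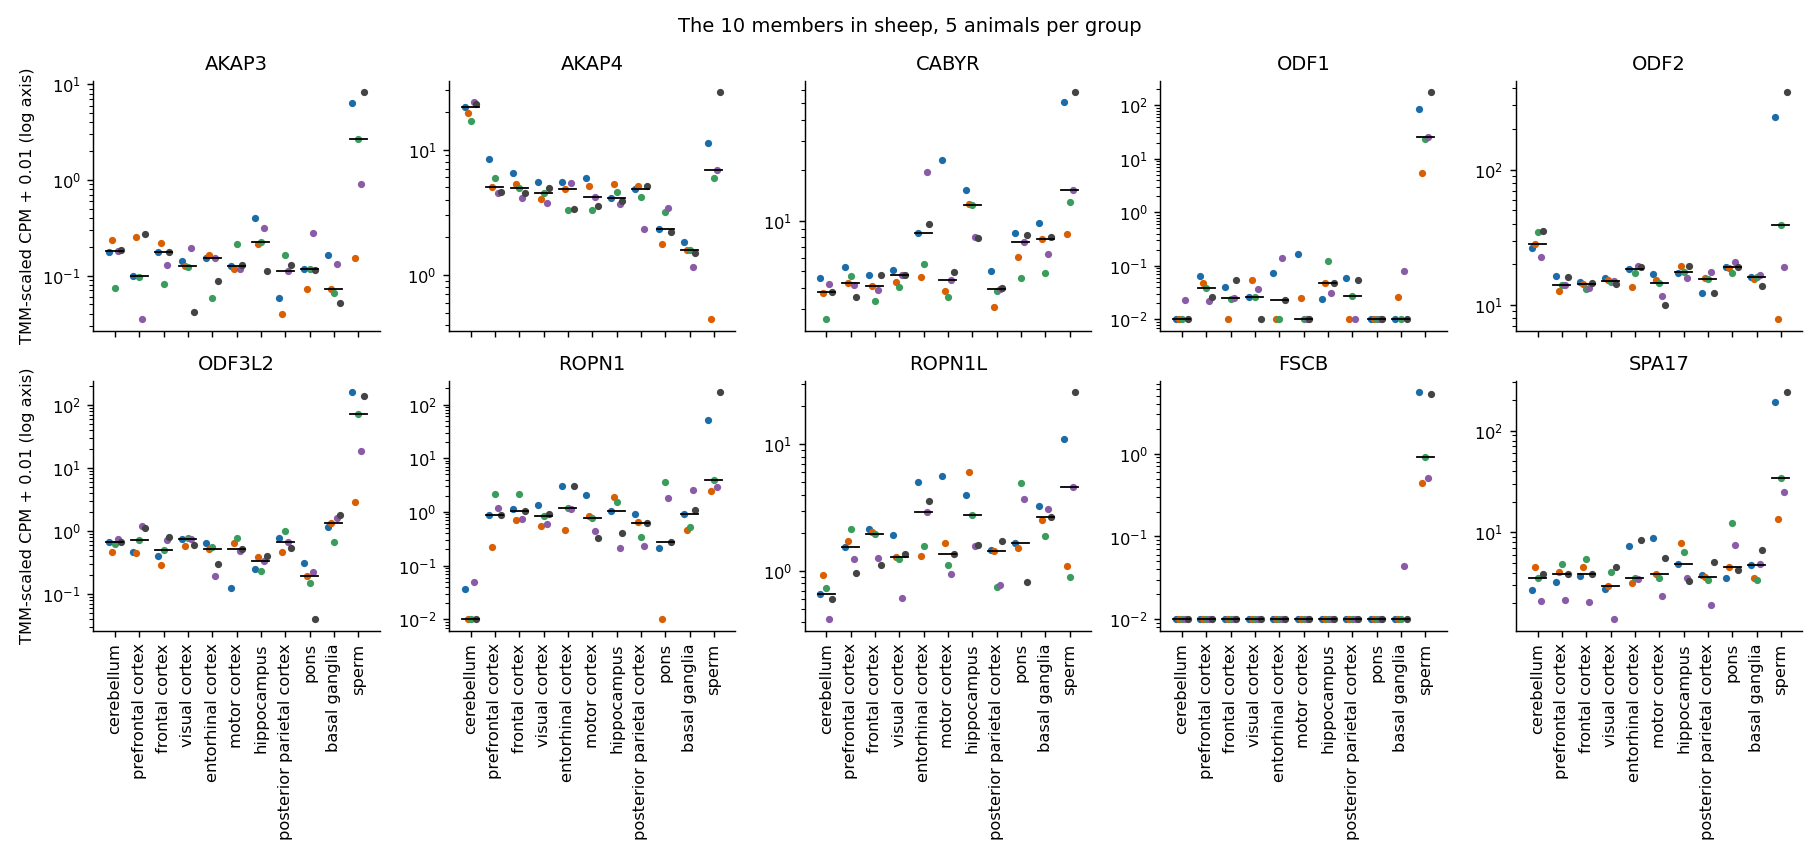
Each panel shows 1 gene in 10 brain regions and sperm, as TMM-scaled CPM plus 0.01 on a log axis. Points are the 5 sheep, in the same colour throughout, and lines are medians. ODF1, ODF3L2, SPA17 and FSCB in sperm lie above every brain library, whereas AKAP4 in sperm overlaps with the cerebellum.

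Within the sheep brain AKAP4 stood out by region. In cerebellum it was at 21.9, 19.7, 16.8, 24.1 and 23.0 CPM in sheep 687, 688, 690, 694 and 699. The highest value elsewhere in the brain was 8.38 CPM, in prefrontal cortex of 687, so no library of another region reached the cerebellum. The cerebellar mean of 21.1 ± 2.88 CPM (SD, n = 5) came from 7909 counts. Mean levels then ran from prefrontal cortex (5.67 ± 1.62) through frontal (5.05 ± 0.90), visual (4.54 ± 0.73), entorhinal (4.495 ± 1.09) and motor cortex (4.42 ± 1.11), hippocampus (4.31 ± 0.66) and posterior parietal cortex (4.30 ± 1.17) to pons (2.56 ± 0.69) and basal ganglia (1.52 ± 0.25, all SD, n = 5). Each of these neighbours overlapped with the next. The cerebellum was apart in every scaling: on plain totals its libraries lay between 21.9 and 33.8 CPM and no other region passed 8.99 CPM. On the TMM scale cerebellar AKAP4 was above the level in the animal's own sperm in 4 of the 5 rams.

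**Figure D2:**
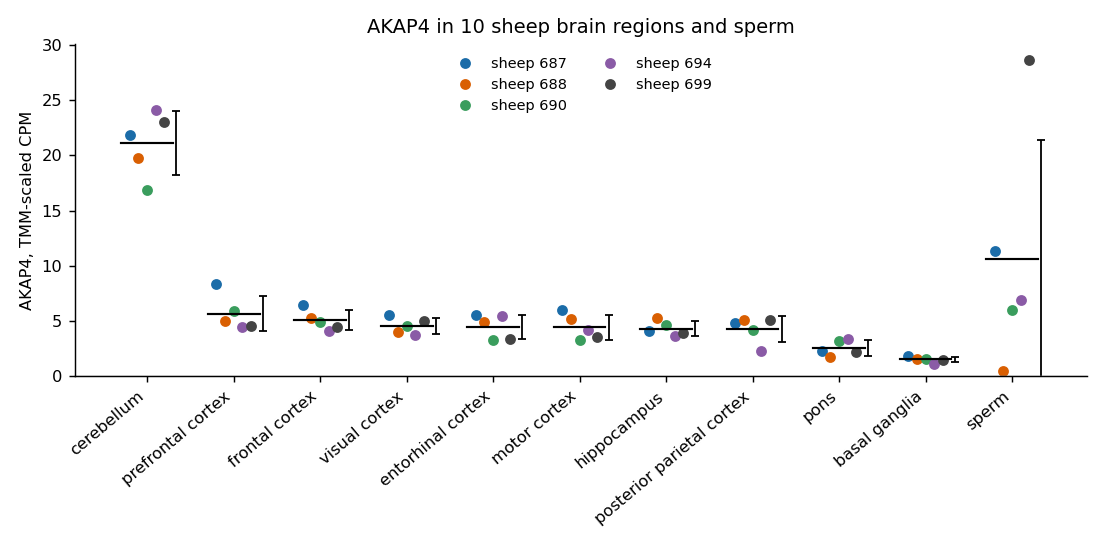
AKAP4 in TMM-scaled CPM on a linear axis, with points for the 5 sheep, lines for means and bars for ± SD (the sperm bar is clipped at 0). All cerebellar points lie between 16.8 and 24.1 CPM, above the other 45 brain libraries.

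Marker genes matched the cerebellum label: 8 of 8 tested granule cell genes and 6 of 6 Purkinje cell genes were called higher there. The 5 genes whose regional means were most like those of AKAP4, by Pearson correlation over 10 regions among 13701 named genes, were RGS11 (0.983), TTC38 (0.982), SSTR3 (0.982), SLC2A11 (0.979) and SNRK (0.977). RGS11, a regulator of G-protein signalling, averaged 38.2 CPM in cerebellum and 4.04 to 11.6 CPM elsewhere. SSTR3, a somatostatin receptor of neuronal cilia, averaged 26.8 CPM in cerebellum and 1.21 to 5.69 CPM elsewhere. All 5 shared with AKAP4 the lowest mean in basal ganglia, a region that entered the correlation by which they were chosen. These values rest on the same libraries, and the cerebellum weighs heavily in them: ranked by Spearman correlation, none of the 5 stayed among the first 5.

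Each region was also tested against the mean of the other 9 for the 7 other members that passed the filter, among 21147 genes. ODF1 and FSCB did not pass. Of the 70 member and region pairs 6, or 8.57%, were called, near the 7.63% of such pairs over all genes. In the same fits 28.8% of all genes were called in cerebellum, 18.7% in pons, 10.3% in basal ganglia, 4.62% in hippocampus, 2.77% in frontal, 2.66% in posterior parietal, 2.46% in prefrontal, 2.24% in entorhinal, 2.12% in visual and 1.64% in motor cortex. No other member was called higher in cerebellum, where 2 were called lower.

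ROPN1 was nearly absent from cerebellum, with 0.0275, 0, 0, 0.0393 and 0 CPM in sheep 687, 688, 690, 694 and 699, from 5 counts in all. Elsewhere it was at 0 to 3.56 CPM, and only the pons of 688 was also at 0. Its log2 fold change in cerebellum was -6.07 ± 0.98 (SE, edgeR adjusted p 9.61e-07). ROPN1L, its close relative, was at 0.406 to 0.919 CPM in cerebellum and its highest regional mean was 3.17 ± 1.85 CPM (SD, n = 5) in hippocampus. It was lower in cerebellum by -1.63 ± 0.37 (SE, log2, edgeR adjusted p 0.000244). ROPN1 was called higher in entorhinal cortex, at 3.05, 0.459, 1.19, 1.11 and 3.09 CPM, with a log2 fold change at 1.598 ± 0.47 (SE, edgeR adjusted p 0.0469). That call was lost with DESeq2 (adjusted p 0.0684), with no low-count filter (edgeR adjusted p 0.0559) and without sheep 687, 694 or 699 (adjusted p 0.24, 0.0785 and 0.375).

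ODF3L2, a member of the ODF3 family, moved in the opposite direction in a pair of subcortical regions. In basal ganglia it was at 1.16, 1.35, 0.673, 1.61 and 1.83 CPM and was called higher by 1.46 ± 0.25 (SE, log2, edgeR adjusted p 8.63e-06). In pons it was at 0.307, 0.186, 0.139, 0.217 and 0.0300 CPM and was called lower, by -1.76 ± 0.34 (SE, log2, edgeR adjusted p 3.57e-05). The ranges of these regions did not overlap. CABYR was higher in hippocampus, at 15.2, 12.5, 12.4, 7.99 and 7.94 CPM, by 1.02 ± 0.23 (SE, log2, edgeR adjusted p 0.00203). Without 688 or 690 that value was 0.92 or 0.90, under the fold threshold.

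ODF2 was in cerebellum at 26.4, 28.2, 34.8, 22.7 and 35.01 CPM, above every other brain library (10.0 to 20.8 CPM). Its difference from the other regions, 0.88 ± 0.08 on the log2 scale (SE, edgeR adjusted p 1.02e-12), stayed under the fold threshold, which it passed on plain totals (1.09). AKAP3 and ROPN1L in hippocampus were close to the threshold as well, at 1.00 ± 0.32 and 0.92 ± 0.29 (SE, log2, edgeR adjusted p 0.0335 and 0.0352). SPA17 was called in no region: its means ran from 3.12 ± 1.24 CPM in visual cortex to 6.41 ± 3.59 CPM in pons (SD, n = 5), and every neighbour in that order overlapped. ODF1 (81 counts) and FSCB (2 counts) were too low in brain to be placed.

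In some single brain libraries, markers of ciliated cells were high together with some, but not all, of the ropporins, CABYR and SPA17. The summed level of 13 such genes was 27.8 to 36.8 CPM in cerebellum. It was 168 and 149 CPM in pons of sheep 690 and 694, 191, 147 and 123 CPM in entorhinal cortex of 699, 687 and 694, and 148 CPM in motor cortex of 687. In hippocampus of 688 and basal ganglia of 694 it was 124 and 126 CPM. In pons, sheep 690 had ROPN1 at 3.56, ROPN1L at 4.95 and SPA17 at 12.2 CPM, while 688, with a marker sum of 44.9 CPM, had 0, 1.52 and 4.56 CPM. CABYR did not follow there: it was at 4.58 CPM in 690 and at 6.11 to 8.43 CPM in the other pons libraries. In basal ganglia of 694 CABYR was at 6.36 CPM, below 687, 688 and 699. In entorhinal cortex of 694 CABYR was at 19.6 CPM, but SPA17 at 3.49 CPM, against 8.40 and 7.37 CPM in 699 and 687. In motor cortex, 687 had CABYR at 22.8 and ROPN1L at 5.63 CPM, and the other 4 sheep, with sums of 29.1 to 35.2 CPM, had at most 4.92 and 1.66 CPM. The same list was called higher for 11 of 13 genes in both entorhinal cortex and pons and 9 of 13 in hippocampus, and lower for 4 of 13 in cerebellum. In either direction, 2.24% of all genes were called in entorhinal cortex, 18.7% in pons, 4.62% in hippocampus and 28.8% in cerebellum. The cerebellar count is thus near its background. The part of ciliated cells in the regional calls was not tested.

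**Figure D3:**
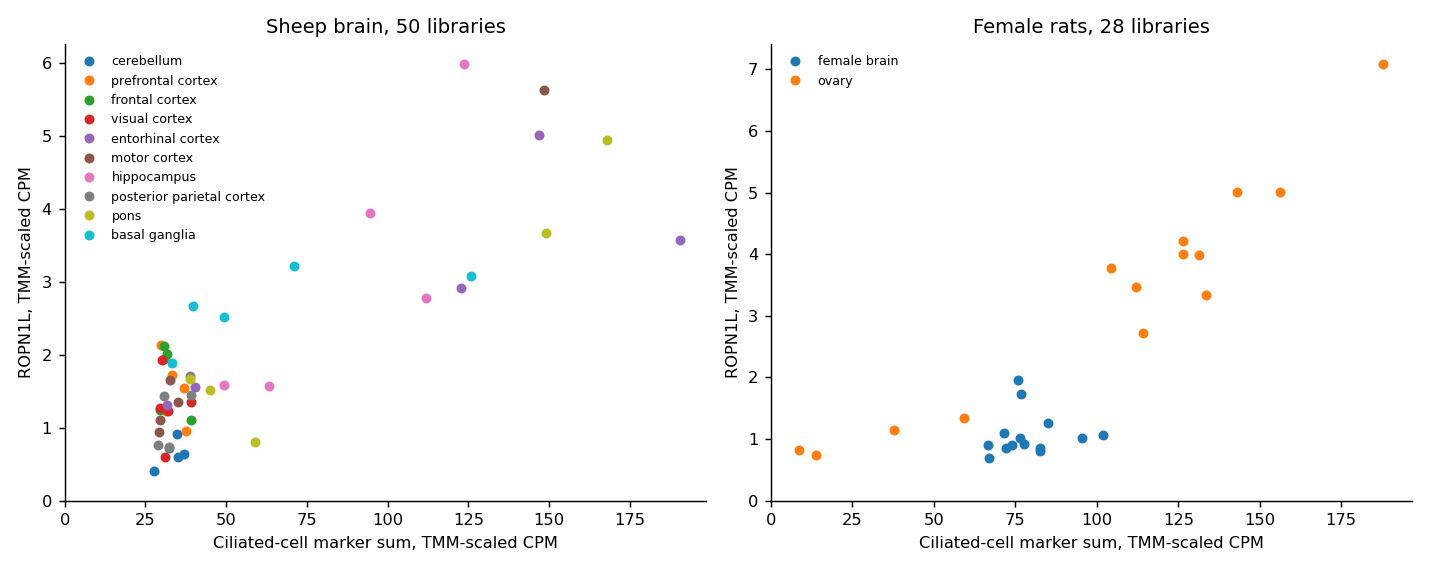
ROPN1L against the summed ciliated-cell markers, both in TMM-scaled CPM, 1 point per library, for sheep brain (left) and female rat brain and ovary (right). Sheep libraries with marker sums of 123 CPM or more have ROPN1L at 2.92 to 5.99 CPM, and ovary libraries with sums of 8.58 to 59.1 CPM have 0.746 to 1.34 CPM.

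In rat sperm the tail transcripts were abundant in a few libraries and scarce in most. Against whole brain of the same males, the 5 members that also passed the filter within rat brain were all called higher in sperm. Akap4, Fscb and Odf1 were called higher as well, but passed only through their level in sperm, which fixes their direction. The background was 27.7% of 20480 tested genes called higher and 31.5% lower. Odf3l2 (Cimap1d) and Ropn1 did not pass. Extraction and library kits differed between the species, so levels in sheep and rats are not compared further.

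Odf1 (chromosome 7, 71262270 to 71274621, GRCr8) was the steadiest member. In the 15 sperm libraries its lowest, median and highest levels were 163, 708 and 4552 CPM. Whole brain of the males had at most 0.252 CPM, from 45 counts, and every rat was higher in sperm. The log2 fold change was 14.74 ± 0.86 (SE), given with no p-value since the filter fixed its direction. The annotation places LOC103692890 over Odf1, and strand was not stated for the counting, so part of the reads cannot be assigned. Odf2 (chromosome 3, 33557738 to 33605076) was at 34.9, 103 and 3398 CPM in sperm and at 33.8 to 42.1 CPM in male brain. Sperm lay above the animal's own brain in 12 of 15 rats, and the log2 fold change was 4.32 ± 0.70 (SE, edgeR adjusted p 2.01e-06), or 2.06 with the animal as a block. Cimap1d (chromosome 7, 10700067 to 10715742) was at 0 in 6 sperm libraries, had a median of 0.0412 and reached 13.1 CPM. The ratio of its summed counts over summed library totals was 37.1 (95% counting interval 28.4 to 49.4), and 23.4 or 24.1 without sperm library 14 or 7.

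Akap4, on chromosome X from 18107256 to 18117549, had 0 counts in all 15 male and 14 female brain libraries. In sperm its lowest, median and highest levels were 0.357, 12.0 and 892 CPM, from 106998 counts. Set against a floor of 3 counts summed over the male brains (0.00379 CPM on plain totals), the sperm level was at least 38244-fold higher, or at least 20474-fold without sperm library 14. The rat brains were taken whole, so they include the cerebellum, where the sheep gene was high. Akap3 (chromosome 4, 161374198 to 161400062, overlapped by LOC134486843) was at 1.01, 2.83 and 1248 CPM in sperm and 0.298 to 1.02 CPM in male brain. All 15 rats were higher in sperm. Its log2 fold change was 8.23 ± 1.204 (SE, edgeR adjusted p 3.16e-07), and 3.62 with the animal as a block.

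Ropn1l (chromosome 2, 84153529 to 84164216) was at 3.71, 20.1 and 2221 CPM in sperm, and no male brain library passed 1.44 CPM. It rose by 8.65 ± 1.11 (SE, log2, edgeR adjusted p 2.94e-08), or 4.91 with the block. Spa17 (chromosome 8, 45496175 to 45507262) was at 8.88, 16.1 and 701 CPM in sperm, higher than the own brain in all 15 rats, and rose by 4.63 ± 0.69 (SE, log2, edgeR adjusted p 4.36e-07), or 2.61 with the block. Fscb (chromosome 6, 88264133 to 88266925) was at 0.612, 8.11 and 118.9 CPM in sperm, and its 5 counts in male brain gave a ratio of 3308 on summed plain totals (95% counting interval 1417 to 10191). Without sperm library 14 that ratio was 1908, and without male brain library 12 or 17, which hold 2 counts each, 5180 or 5182. Ropn1 (chromosome 11, 79603053 to 79632344) had a median of 1.49 CPM, reached 575 CPM and was at 0 in 2 sperm libraries. Male brain gave 29 Ropn1 counts, a ratio of 2213 (95% counting interval 1541 to 3305), or 999.5 without sperm library 14.

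Cabyr (chromosome 18, 4166790 to 4178570) had the smallest fold change among the members. It was at 2.38, 7.03 and 403 CPM in sperm and 4.55 to 7.64 CPM in male brain, and sperm was above the own brain in 8 of 15 rats. It was called at 3.47 ± 0.71 (SE, log2, edgeR adjusted p 5.89e-05), but the call was lost with the animal as a block (1.04, adjusted p 0.16). Leaving out library 14 gave 2.55 for Cabyr, and 7.03 for Akap3, 7.74 for Ropn1l, 3.76 for Odf2 and 3.78 for Spa17, all still called. Without libraries 7, 16 and 17, Cabyr was at 3.16 and 8 members were again called.

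**Figure D4:**
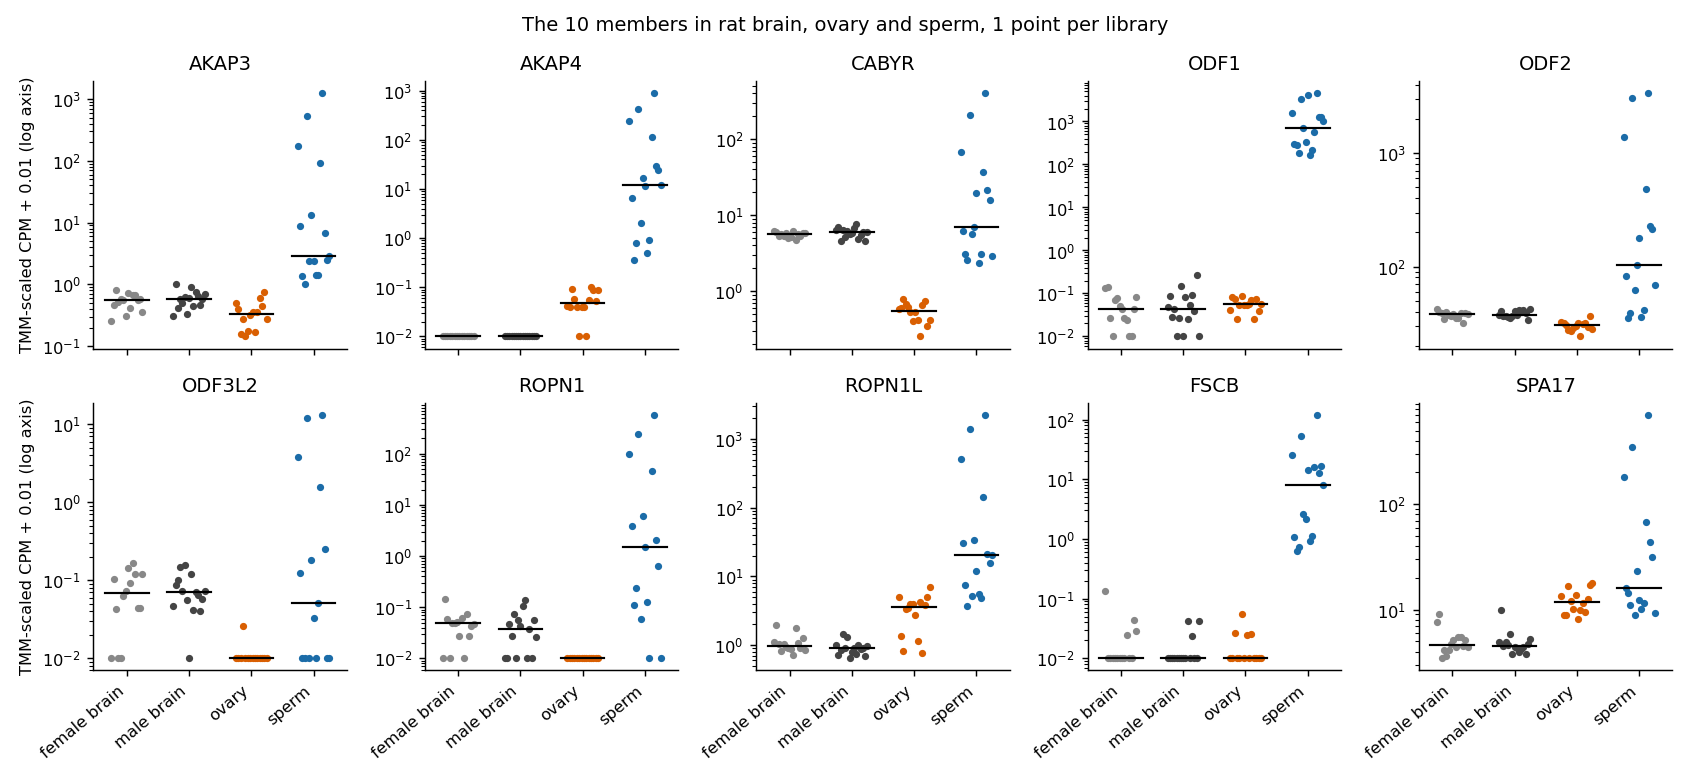
TMM-scaled CPM plus 0.01 on a log axis, 1 point per library and lines for medians, in female brain (14), male brain (15), ovary (14) and sperm (15). AKAP4 is at 0 in all brain libraries, and the sperm points of most genes spread over 2 or more powers of 10.

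The wide spread in rat sperm came from the same 4 animals for most members. Libraries 14, 7, 3 and 13, in that order, were the highest 4 for AKAP3, AKAP4, CABYR, ODF2, ODF3L2, ROPN1, ROPN1L and SPA17, which is 8 of 10 members. How many genes outside the set share this order was not counted, so it is not read as particular to the members. Akap3 was at 1248, 538, 176 and 90.9 CPM in these and at 1.01 to 13.1 CPM in the other 11, and they held 97.9% of its summed level. For Ropn1 that share was 98.5%, for Ropn1l 96.4% and for Akap4 94.1%. Fscb and Odf1 were spread more evenly, with 78.1% and 67.9% of their summed level in their own highest 4 libraries. For Fscb these included library 16 in place of 13, and for Odf1 library 10, the second highest, in place of 13.

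Odf1 thus parted from Akap3 in many animals. Library 10 had 175004 Odf1 counts and 101 Akap3 counts, a ratio of 1733. In library 14 the counts were 276901 and 75895, a ratio of 3.65. The ratio was 3.65 to 9.05 in the 4 rich libraries and 25.7 to 1733 in the other 11. Odf1 counts per Odf2 count were 1.08 to 1.34 in the 4 and 3.27 to 22.6 in the other 11. Ropn1 had 0.457 to 0.565 counts per Akap3 count in the 4 and 0 to 0.634 in the other 11, which span that range.

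Spermatid genes moved with these libraries. The transition protein gene Tnp1 was at 4584, 2595, 854 and 378 CPM in libraries 14, 7, 3 and 13 and at 0 to 55.02 CPM in the other 11. The protamine gene Prm1 was at 4360, 4423, 1833 and 415 CPM in the 4 and at 11.6 to 515 CPM in the others, where library 10 was the highest. The summed ciliated-cell markers, many of which also belong to the sperm axoneme, were 747, 420, 234 and 106 CPM in the 4 and 11.2 to 30.4 CPM elsewhere. Whether spermatids, or fewer sperm, account for the order was not tested. Over the 15 libraries, the 5 genes most like Akap4 by Pearson correlation among 9378 named genes were Nme8 (0.994), Ccdc7b (0.994), Actl11 (0.993), Plaat5 (0.993) and Tsks (0.992). Depth and composition are shared by these libraries, so the values describe them only.

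**Figure D5:**
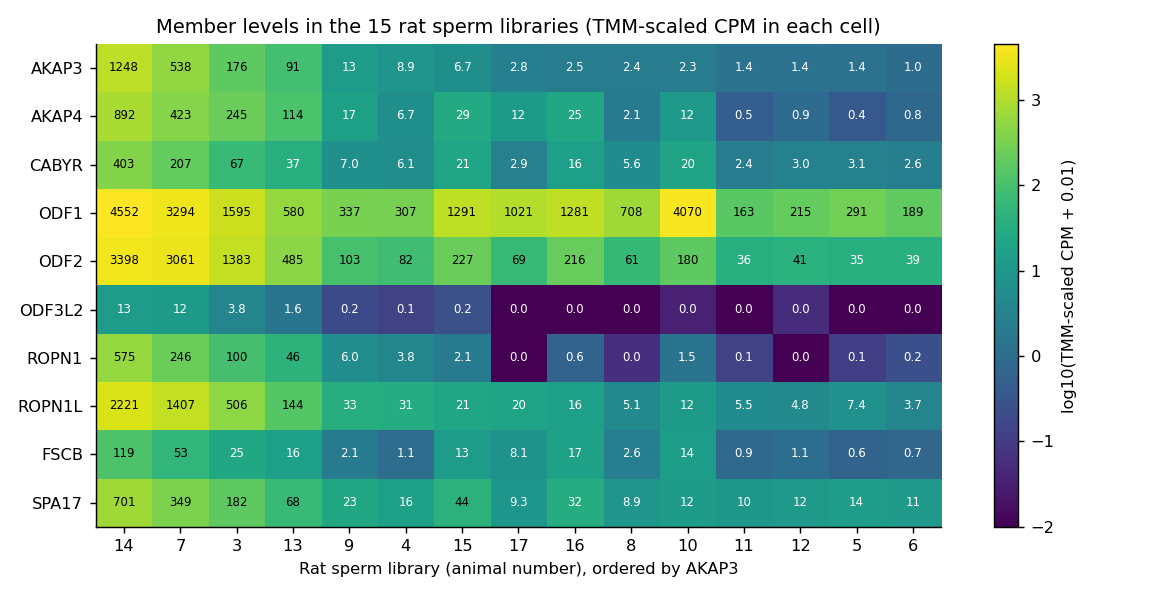
Rows are the 10 members and columns the 15 rat sperm libraries, ordered by AKAP3. Colour is log10 of TMM-scaled CPM plus 0.01, and the CPM stands in each cell. The left 4 columns (libraries 14, 7, 3 and 13) hold the highest values of 8 rows, while ODF1 lies between 163 and 4552 CPM over all 15.

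In the ovary 3 of 5 members tested against brain of the same females were called. Over all 20801 genes, 27.7% had a higher call in ovary and 29.2% a lower one, 11832 genes in all. The count of members called is thus near its background. Cabyr was lower: its lowest, median and highest levels were 0.244, 0.547 and 0.773 CPM in ovary and 4.68, 5.67 and 6.20 CPM in female brain, without overlap. The log2 fold change was -3.37 ± 0.13 (SE, edgeR adjusted p 1.10e-20). Ropn1l was higher, at 0.746, 3.62 and 7.09 CPM in ovary and 0.700, 0.971 and 1.96 CPM in brain, by 1.64 ± 0.27 (SE, log2, edgeR adjusted p 2.04e-06). Spa17 was higher, at 8.15, 11.8 and 17.9 CPM in ovary and 3.45, 4.603 and 8.99 CPM in brain, by 1.29 ± 0.14 (SE, log2, edgeR adjusted p 5.37e-10). Spa17 was above the own brain in 13 of 14 rats and Ropn1l in 11.

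Akap3 and Odf2 passed the p threshold but not the fold threshold in ovary, at -0.64 ± 0.22 and -0.30 ± 0.05 (SE, log2, edgeR adjusted p 0.00928 and 3.26e-07). The remaining 5 members were rare in both tissues. Akap4 had 40 counts in 12 of 14 ovaries, at up to 0.0896 CPM, and 0 in brain, so that ovary was at least 15.3-fold higher on summed plain totals. Ropn1 had 0 counts in ovary and 30 in brain, at least 8.73-fold lower. Cimap1d had 1 count in ovary and 55 in brain, a ratio of 0.0208 (95% counting interval 0.000518 to 0.121), and was at least 14.96-fold lower without the ovary that held the count. Odf1 gave 43 and 29 counts and Fscb 6 and 5. With no filter on low counts, and with DESeq2, the calls numbered 6, adding Akap4, Cimap1d and Ropn1. Of all 33789 genes in those fits, 18799 and 16792 were called, so these counts too are near their background.

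Ropn1l was uneven over the ovaries. Libraries 18, 26, 24 and 2 were at 0.821, 0.746, 1.14 and 1.34 CPM, within the range of brain, and the other 10 at 2.73 to 7.09 CPM. Their summed ciliated-cell markers were 8.58, 13.9, 37.9 and 59.1 CPM, against 104 to 188 CPM in the other 10. Of the 13 genes in that list 5 were called higher and 2 lower in ovary, and all 4 oviduct epithelium and mesothelium genes were higher. Over all genes 27.7% were called higher and 29.2% lower. Only 2 of the oviduct and mesothelium genes passed the filter in brain alone, and for the others the direction was fixed by ovary. Spa17 was at 8.98, 9.51, 9.82 and 8.95 CPM in the 4 and at 8.15 to 17.9 CPM in the other 10. The part of oviduct or other ciliated tissue in the ovary samples was not tested.

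Between the sexes the brain levels of the members were close. Of 20570 genes tested in male against female brain, 12 (0.0583%) were called in either direction, and 0 of 5 members tested were. None of the 5 had an unadjusted p under 0.05, and DESeq2 called 0 as well. Male minus female log2 differences were 0.09 ± 0.17 for Akap3, 0.09 ± 0.07 for Cabyr, 0.04 ± 0.04 for Odf2, -0.24 ± 0.14 for Ropn1l and -0.05 ± 0.13 for Spa17 (SE).

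Other genes of the same structures were read from lists drawn up by name. In sheep sperm 33.1% of all tested genes were called higher and 41.1% lower. Of the lists, 6 of 11 tested further fibrous sheath genes were called higher and 3 lower, and 6 of 7 further dense fibre genes higher and 1 lower. Those higher included CABS1 (log2 fold change 15.94), FSIP2 (10.37), TXNDC2 (7.96) and the sheath-bound glycolytic enzyme GAPDHS (4.06). CABS1 and FSIP2 passed the filter only through their level in sperm, which fixes their direction. Those lower were AKAP11 (-3.42), the dense fibre list gene ODF2L (-2.27) and the protein kinase A subunits PRKAR1A (-2.16) and PRKACA (-4.12), which are widely expressed. In rat sperm 27.7% of all tested genes were called higher and 31.5% lower. Of the lists, 7 of 11 sheath genes were higher and 1 lower, and 7 of 9 dense fibre genes were higher. They included Pgk2 (15.56) and Ldhc (9.41), germ cell forms of glycolytic enzymes, and Oaz3 (11.75). Pgk2, Ldhc and Cabs1, which was also called higher, passed the filter only through sperm. The median log2 fold change of the sheath and fibre lists was 3.13 and 2.13 in sheep sperm and 1.76 and 4.61 in rat sperm, beside medians of -0.42 and -0.03 over all genes. Of the 11 tested sheath genes, 9 in sheep and 8 in rats passed the filter in brain alone. The sheath counts thus include genes with a fixed direction, and no sheath median is given.

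In ovary 27.7% of all tested genes were called higher and 29.2% lower. Near that background, 3 of 9 sheath genes were higher and 3 lower. Of the fibre genes 1 of 9 was higher and 4 lower. Ldhc (3.03), Fsip1 (2.10), Akap14 (1.08) and Odf4 (1.63) were the higher ones, and Ccdc42 (-4.39) fell most. Ldhc passed the filter only through ovary, which fixes its direction. In sheep cerebellum 3 of 7 fibre genes were called higher, CIMAP1A (1.38), OAZ3 (1.23) and SPAG4 (1.07), while 1 of 9 sheath genes, TXNDC2 (-1.03), was lower. There 28.8% of all 21147 genes were called in either direction, 1977 of them higher and 4116 lower.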

How the data were processed

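The authors deposited raw read counts per gene, 1 column per library, for 55 sheep and 58 rat libraries. Per the submitters' processing notes and the labels, stranded mRNA libraries were read from both ends for 150 bases, trimmed with Trimmomatic 0.39, aligned with STAR 2.7.5a to ARS-UI_Ramb_v3.0 (sheep) or GRCr8 (rat) and counted with Rsubread 2.20.0. The strand setting and the handling of multi-mapping reads were not stated there, so counts of overlapping genes are uncertain.

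Counts were tested here with edgeR 4.0.16 (quasi-likelihood test, TMM factors, filterByExpr, prior count 0.125) in R 4.3.3, with p-values adjusted by Benjamini-Hochberg over all genes tested. A call needed a log2 fold change of 1 or more in size and an adjusted p under 0.05. The SE is the absolute log2 fold change over the square root of F, and can understate the spread of sperm. All sheep libraries entered the fit of sperm against the average of the 10 regions, the brain libraries that of each region against the other 9, and the 2 tissues compared each rat fit. The script was tested on simulated counts for the ovary and cerebellum comparisons only, with a common spread for all genes. The sperm comparisons were not simulated. Levels are TMM-scaled CPM with SD over animals. p-values rest on the spread between libraries within groups, with no term for the animal. In the sheep fit of sperm against brain most libraries are brain, so p-values there can be too small for the spread of sperm.

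Samples with a shared number come from the same animal per the labels. Correlations of same-animal deviations from group means had medians of 0.10 in sheep, 0.06 for brain and sperm of male rats and 0.04 for brain and ovary of females (lowest -0.51, -0.11 and -0.26). A fit with the animal as a block was therefore an alternative, and its value stands beside results it moves. Other alternatives were RLE, upper quartile and plain scaling, totals without entries over 5% of a library, no low-count filter, DESeq2 1.42.0, and leaving out libraries.

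All 10 members are described. Genes most like AKAP4 were the 5 with the highest Pearson correlation of log2(CPM + 1), over region means (genes with at least 1 CPM in a region) or rat sperm libraries (mean of at least 10 CPM), leaving out members and placeholder names. The members and lists were chosen with earlier results of these data known. Promoter windows and positions are from RefSeq (GRCr8). No sheep positions were used here.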

Additional observations from a re-analysis of the deposited data

Results flagged for a closer look

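Among sheep groups of 5 libraries with a member's mean at 1 CPM or more, 3 of 66 had a single library far from the others. About 1 group in 20 is marked in this way by chance. CABYR in motor cortex was at 22.8 CPM in sheep 687 and at 3.50 to 4.92 CPM in the other 4. ROPN1L in the same library was at 5.63 CPM, against 0.944 to 1.66 CPM in the others. ROPN1 in frontal cortex was at 2.15 CPM in sheep 690 and at 0.699 to 1.11 CPM in the others. The motor cortex library of 687 also had the highest ciliated-cell marker sum of its region (148 CPM against 29.1 to 35.2 CPM), while the frontal cortex library of 690 did not (30.7 CPM, within 29.4 to 39.1 CPM in the others).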

How the results depend on the processing

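On plain totals, AKAP4, CABYR and ROPN1L in sheep sperm changed direction, to -1.26, -0.27 and -0.26 on the log2 scale. In that setting 6 members were called in place of 9, and AKAP4 was among them as lower. Of all 21859 tested genes, 3248 were called higher and 15088 lower on plain totals. There the median of all genes was -2.84, against -0.42 with TMM factors, 0.31 with upper quartile factors and 1.05 with DESeq2. Sheep sperm calls numbered 8 to 9 when each sheep was left out, region calls 5 to 7 (6 with all animals, 9 on plain totals), and rat sperm calls 8 throughout the left-out libraries. In ovary, calls rose from 3 to 6 with no low-count filter and to 6 with DESeq2, since more members were tested. Over all 33789 genes, 18799 and 16792 were called in those 2 fits. In a fit with the replicate block by animal, rat sperm calls were 7 (Cabyr lost), and the calls in sheep sperm (9), regions (6) and ovary (3) did not change in number. Against the background of 0.0583% of genes, male and female brain gave 0 calls in every fit run. By Spearman in place of Pearson correlation, 0 of the 5 sheep genes and 2 of the 5 rat genes most like AKAP4 were named again. The other settings kept the direction of every fold change given. Leaving out libraries 7, 16 and 17, brain libraries 1 and 4, or single libraries from ratios of counts was chosen after seeing the data. Low counts limit AKAP3 and FSCB in sheep sperm and ODF1 and FSCB in brain.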

Other observations

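The mitochondrial sheath of the midpiece was read beside the tail genes. In sheep sperm 1 of 3 tested genes of that list was called higher, near the 33.1% of all genes. It was SMCP, the cysteine-rich protein of the sperm mitochondrial capsule (log2 fold change 14.30 ± 0.54, SE). In both species SMCP passed the filter only through sperm, which fixes its direction. GPX4, a selenoprotein of the same capsule that other cells also make, was at 0.55 ± 0.27 and was not called. In rat sperm, where 27.7% of all genes were called higher, 3 of 4 were higher. These were Smcp (16.28 ± 0.89), the testis form of a cytochrome oxidase subunit Cox6b2 (5.39 ± 0.97) and Gpx4 (1.70 ± 0.41, all SE, log2). In rat ovary 1 of 3 was called higher, Cox6b2 (2.07 ± 0.16, SE, log2, edgeR adjusted p 3.94e-13), beside 27.7% of all genes.

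The letters TGATGTCA, seen before the start of 4 members, were also counted before other genes of the lists with a promoter window in rat. They were found in 2 of 13 further fibrous sheath genes (Txndc2 and Gapdhs), 1 of 8 further dense fibre genes (Oaz3), 1 of 7 mitochondrial sheath genes (Smcp), 2 of 10 spermatid nucleus and acrosome genes (Prm1 and Hmgb4) and 0 of 10 ciliated-cell genes.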
